A study of Mus musculus with 10 samples.

Results

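The Tmem132 family comprises 5 mouse genes, Tmem132a, Tmem132b, Tmem132c, Tmem132d and Tmem132e, out of 54532 genes in the deposited tables. They were found by gene symbol. Tmem132d was chosen by its measured counts, which were higher in the libraries labelled conditional knockout (cKO), so its difference between genotypes is a description here and was not tested. The other members were taken as its relatives. All 5 passed the filter on low counts that left 17937 genes.

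The measurements are messenger RNA counts from cochlear soft tissue of female mice on postnatal day 1, with both ears of an animal combined into 1 library. The control group (Esrrgfl/fl, 5 libraries) carries Esrrg alleles flanked by loxP sites, and the group labelled cKO (Esrrgfl/fl;Sox10-Cre, 5 libraries) carries the same alleles with Sox10-Cre. Cre recombinase cuts out loxP-flanked DNA in cells in which the Sox10 sequences that drive it have been active, such as otic epithelium, glia and melanocytes, so other cells of the dissected tissue keep the alleles. Controls do not carry Cre, and an effect of Cre or of its insertion cannot be told apart from loss of Esrrg.

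TMEM132 proteins are single-pass membrane proteins whose large outer part holds immunoglobulin-like domains, and the family has been proposed to act in cell adhesion in the nervous system. TMEM132D has been tied to panic disorder in human genetic studies and to the WAVE complex, which drives branched actin growth. TMEM132E is a human deafness gene (DFNB99). TMEM132A has been linked to Wnt and Hedgehog signalling and to integrins, and TMEM132B to GABA-A receptors. Little is known of TMEM132C.

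On GRCm38, with positions counted from 1, 3 of the members lie on chromosome 5. Tmem132b (ENSMUSG00000070498) spans 125531774 to 125792583 and Tmem132c (ENSMUSG00000034324) spans 127241808 to 127565793, both on the plus strand. Tmem132d (ENSMUSG00000034310) spans 127781630 to 128433077 on the minus strand. The gap between Tmem132c and Tmem132d is 216 kb, and that between Tmem132b and Tmem132c is 1449 kb. Tmem132e (ENSMUSG00000020701) lies on chromosome 11, 82388900 to 82446332, plus strand. Tmem132a (ENSMUSG00000024736) is the shortest locus, at 12.1 kb on chromosome 19, 10857822 to 10869940, minus strand. Tmem132d is the longest, at 651 kb. Exons of Tmem132a overlap those of Slc15a3 on the opposite strand, and reads of this pair could not be separated because the use of strand is not given in the sources used here. No exon of the other members overlaps another annotated gene. The antisense gene Tmem132cos, inside the Tmem132c locus, held at most 1 count in any library.

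RefSeq promoter windows (build GRCm38.p6) were matched for 3 members, Tmem132b, Tmem132c and Tmem132e. None was matched for Tmem132a or Tmem132d, so the promoter of Tmem132d was not searched. The 250 bases before the RefSeq start of the lowest and of the highest of the 5 genes are shown, because these windows differ in base composition; capitals mark CpG dinucleotides, and both are on the plus strand, 5′ to 3′. The window of Tmem132b is chr5:125532168-125532417 and that of Tmem132c is chr5:127241576-127241825. RefSeq starts lie downstream of the GENCODE starts for both genes, so the window of Tmem132b is inside the GENCODE locus given above, as is the end of the window of Tmem132c.
Tmem132b: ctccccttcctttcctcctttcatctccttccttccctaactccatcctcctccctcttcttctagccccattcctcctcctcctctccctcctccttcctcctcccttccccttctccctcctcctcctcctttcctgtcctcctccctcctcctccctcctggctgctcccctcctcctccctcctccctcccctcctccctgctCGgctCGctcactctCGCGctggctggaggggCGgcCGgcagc
Tmem132c: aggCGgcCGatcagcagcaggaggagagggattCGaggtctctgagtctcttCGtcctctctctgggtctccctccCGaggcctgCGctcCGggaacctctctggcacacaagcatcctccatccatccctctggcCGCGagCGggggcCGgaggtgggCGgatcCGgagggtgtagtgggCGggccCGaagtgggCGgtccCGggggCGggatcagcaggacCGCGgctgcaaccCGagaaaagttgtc

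The Tmem132b window is a pyrimidine-rich run with 6 CpG, all in its last 100 bases, and 20 overlapping matches to CCTCCT on either strand. The Tmem132c window has 21 CpG and 1 such match. The window of Tmem132e has 28 CpG. Estrogen-related receptors, of which Esrrg encodes one, bind the response element TCAAGGTCA. Neither this sequence nor its inner parts AAGGTCA and AGGTCA, which overlap it, were found on either strand of the full 300-base windows of these 3 genes. Among all 32851 RefSeq windows of that length, TCAAGGTCA was in 0.423%, AAGGTCA in 4.72% and AGGTCA in 16.3%. A window without these letters says nothing of binding elsewhere.

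Libraries held 33.5 to 41.8 M counts (M, mega), with TMM scaling factors from 0.971 to 1.03. Esrrg, the targeted gene, was higher in the libraries labelled cKO. Its level was 58.4 ± 6.34 CPM (counts scaled to a common library total, with TMM factors) in controls against 89.8 ± 15.2 CPM in those libraries (SD, n = 5 each), with no overlap. The log2 fold change was 0.62 (SE 0.117), the edgeR adjusted p was 0.0259 and the exact two-sided permutation p was 0.00794, the smallest that 5 against 5 can give. The call was lost in 7 of 10 fits with 1 library left out, with an edgeR adjusted p of up to 0.0992 without cKO 2. The targeted gene thus went against its label, gene-level counts do not show a removed exon, and every direction given here depends on the label. Over all genes tested, edgeR called 98 lower and 13 higher at an adjusted p under 0.05, 0.619% in either direction and 0.0725% in the higher direction; 178 were lower without control 2 and 44 without control 3.

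Levels of the members were compared per length, as FPKM. Tmem132c was the most abundant in controls at 36.2 ± 4.23 FPKM, followed by Tmem132a at 24.5 ± 2.17, Tmem132e at 4.80 ± 0.527, Tmem132d at 0.845 ± 0.148 and Tmem132b at 0.282 ± 0.0794 FPKM (SD, n = 5 each). This order held in all 10 libraries, and in neither group did the FPKM ranges of neighbouring genes overlap. The closest neighbours were Tmem132c and Tmem132a, whose FPKM ratio ran from 1.20 in control 2 to 2.12 in cKO 5. For scale, the median tested gene had 4.44 FPKM in controls. Tmem132c stood above 92.7% of tested genes, Tmem132e above 51.9%, Tmem132d above 21.8% and Tmem132b above 9.42%. Tmem132c and Tmem132a together made up most of the family's RNA: in controls they took 54.2 ± 3.12% and 36.9 ± 3.63% of the summed FPKM of the 5 genes, and Tmem132d took 1.26 ± 0.134%. In the libraries labelled cKO the shares were 58.1 ± 2.75% for Tmem132c, 32.4 ± 3.15% for Tmem132a and 2.41 ± 0.191% for Tmem132d (SD, n = 5).

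**Figure D1:**
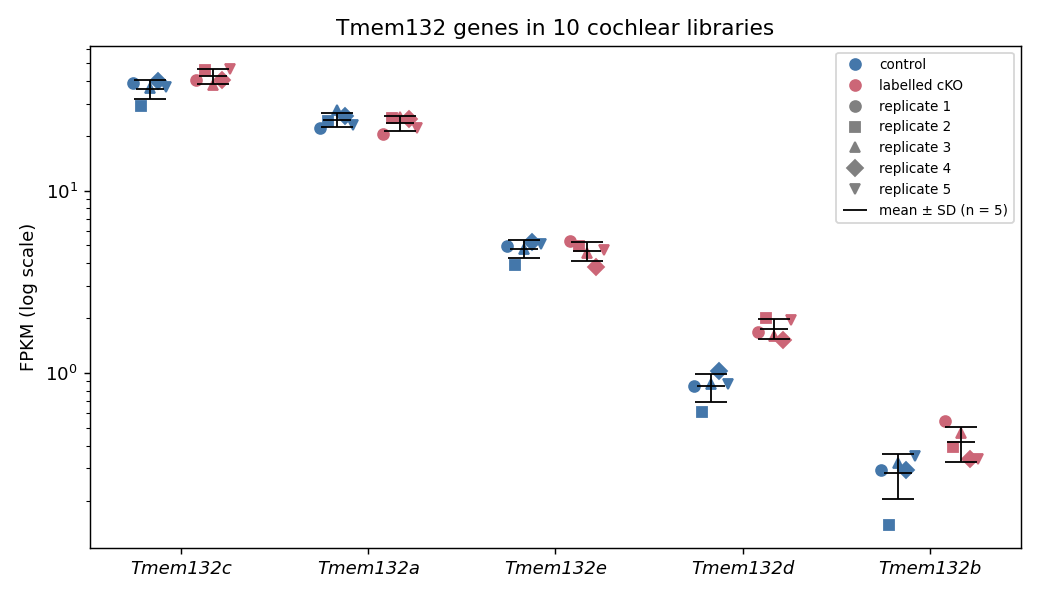
FPKM (vertical axis, log scale) of the 5 Tmem132 genes in each control library (blue) and each library labelled cKO (red); symbols give the replicate number and black bars the mean ± SD of 5 libraries. The 5 genes keep 1 order in all libraries, and Tmem132d is the only one whose genotype groups do not overlap.

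In the tissue as a whole, fewer cells of a type and less RNA per cell cannot be told apart, and this holds for each difference that follows. Tmem132d, whose protein is the one tied to the WAVE complex, was the member chosen for its rise. Control libraries 1 to 5 held 5.55, 4.05, 5.63, 6.68 and 5.68 CPM of Tmem132d. Libraries labelled cKO 1 to 5 held 10.9, 13.1, 10.4, 9.83 and 12.9 CPM. Control 2 was the lowest of all, and the lowest library labelled cKO, replicate 4, lay above the highest control. The log2 fold change was 1.05 (SE 0.141), a fold of 2.07. Its raw counts ran from 144 to 241 in controls and from 364 to 472 in the group labelled cKO. Over all tested genes 2.84% showed no overlap in either direction and 1.20% were higher without overlap; since that contrast chose the gene, nothing is read from this share. With 1 library left out the log2 fold change stayed between 0.95 (without control 2) and 1.12 (without control 4).

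Tmem132c, the nearest relative on the chromosome and the most abundant, had 228, 173, 213, 233 and 219 CPM in controls 1 to 5. The libraries labelled cKO had 238, 270, 222, 237 and 276 CPM in the same order. Control 2 was again the lowest, and the groups overlapped between cKO 3 and control 1 or 4. The log2 fold change was 0.22 (SE 0.0943), with an approximate 95% interval of 0.04 to 0.41 and an edgeR adjusted p of 0.479 (unadjusted 0.0345), so the difference was not called. Without control 2 it was 0.14 (adjusted p 0.499).

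Tmem132b, the member linked to GABA-A receptors, was the least abundant, with raw counts of 44 to 115 in controls and 103 to 156 in the group labelled cKO. In controls 1 to 5 it had 2.43, 1.24, 2.67, 2.44 and 2.94 CPM. In the libraries labelled cKO it had 4.53, 3.26, 3.88, 2.78 and 2.81 CPM. Control 2 was the lowest, and control 5 lay above cKO 4 and cKO 5. The log2 fold change was 0.56 (SE 0.222; interval 0.12 to 0.99), the edgeR adjusted p was 0.442 (unadjusted 0.0252), and the difference was not called. Of the members, Tmem132b varied most within a genotype, with a coefficient of variation of 27.9% in controls against 8.70% for Tmem132a. Without control 2 the log2 fold change of Tmem132b was 0.39 (edgeR adjusted p 0.480).

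The other two members differed less between genotypes. Tmem132e, the deafness gene, had 23.3, 18.7, 22.6, 24.7 and 24.3 CPM in controls 1 to 5. It had 25.0, 23.4, 21.4, 18.0 and 22.6 CPM in the libraries labelled cKO. The groups overlapped over nearly their whole range, with control 2 and cKO 4 the lowest of each. The log2 fold change was -0.04 (SE 0.108; interval -0.25 to 0.17; edgeR adjusted p 0.916), and it was 0.02 without cKO 4.

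Tmem132a had 90.0, 100.3, 112, 105 and 94.3 CPM in controls 1 to 5. It had 83.6, 102, 104, 101 and 90.9 CPM in the libraries labelled cKO. Only cKO 1 lay below the control range. The log2 fold change was -0.06 (SE 0.0842; interval -0.23 to 0.10; edgeR adjusted p 0.833), and the overlapping Slc15a3 averaged 3.83 CPM in controls against 2.84 CPM. Among the 4 relatives of Tmem132d, 0 were called by edgeR, against 0.619% of all genes tested. Of these, 2 had an unadjusted p under 0.05, Tmem132b and Tmem132c; 9.65% of all tested genes did, 4.13% in the higher direction. DESeq2 and limma-voom called 0 of the 4 as well.

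**Figure D2:**
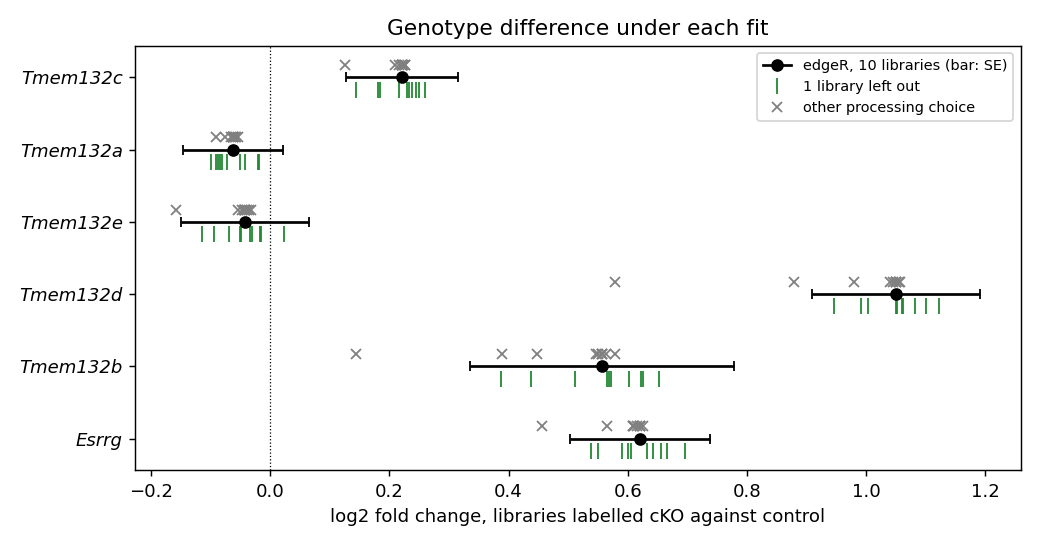
Log2 fold change of each Tmem132 gene and of Esrrg between the libraries labelled cKO and the controls (horizontal axis), from the edgeR fit of 10 libraries (black, bar: SE), from fits with 1 library left out (green) and under other processing choices (grey). Tmem132d lies between 0.95 and 1.12 when a library is left out; the grey cross at 0.58 is the fit on log2(FPKM + 1), a scale that compresses low genes.

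How the members varied among animals of 1 genotype was examined on log2 CPM after subtraction of each group's mean. Control 2 lay below its group mean by 0.84 for Tmem132b, 0.42 for Tmem132d, 0.29 for Tmem132c and 0.27 for Tmem132e, and at 0.0041 above it for Tmem132a. This library was also low for long genes in general. Its median deviation was -0.32 over the 977 tested genes that span more than 200 kb and 0.15 over the 8843 that span less than 20 kb. In the other 9 libraries the median over the long genes lay between -0.031 and 0.14. Tmem132b, Tmem132c and Tmem132d belong to the long class and Tmem132a to the short one, and the part of locus length in their values was not tested.

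Tmem132c and Tmem132d deviated together within the genotypes. The correlation of their group-centred log2 CPM was 0.93 over 10 libraries, and it was 0.85 without control 2, the lowest of the 10 values with 1 library left out. In the group labelled cKO, replicates 2 and 5 were above the mean for both genes and replicates 1, 3 and 4 below it. Among the other pairs, the correlation of Tmem132b with Tmem132c went from 0.41 to -0.55 without it, and that of Tmem132b with Tmem132d from 0.52 to -0.25. Tmem132d with Tmem132e went from 0.78 to 0.60, Tmem132b with Tmem132e from 0.77 to 0.57 and Tmem132c with Tmem132e from 0.65 to 0.35. Tmem132a had values between -0.38 and 0.0080 with the other members. For scale, the genes most like Tmem132c in pattern, Ctdsp2, Cdk19 and Furin, each had 0.97 with it on this group-centred measure. All these values are descriptions over libraries that share 1 scaling step.

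**Figure D3:**
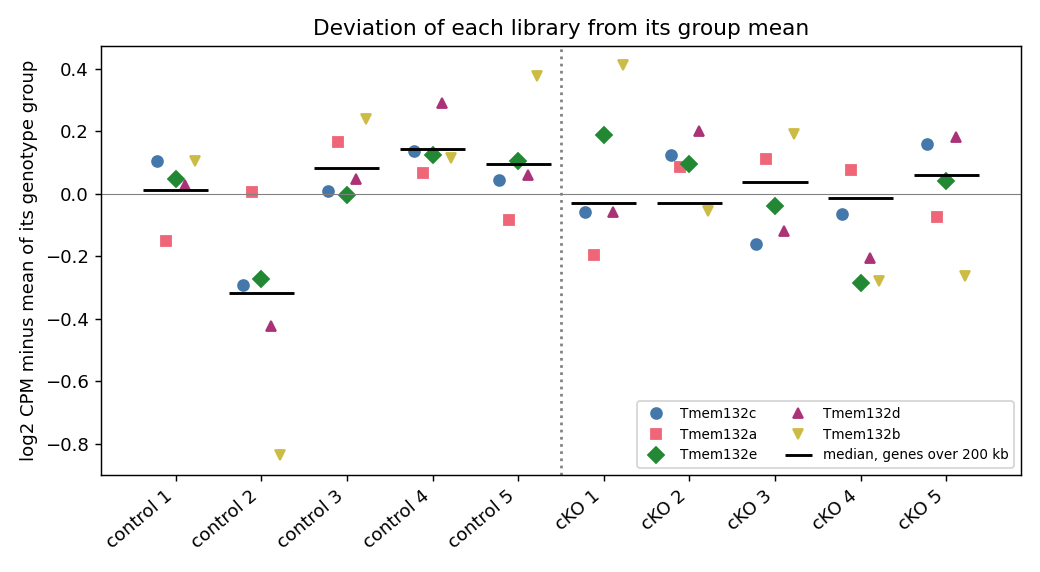
Deviation of log2 CPM from the mean of the genotype group (vertical axis) for the 5 Tmem132 genes in each library (horizontal axis); black bars give the median over tested genes spanning more than 200 kb. Control 2 is low for 4 of the 5 genes and for the long genes.

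The genes most like each member in their pattern over the 10 libraries were found by Pearson correlation of log2 CPM among 15259 tested genes with at least 1 CPM on average. For Tmem132d these were Lmntd1 (0.96), Micall1, Mctp2, Man1b1 and Axl (0.95 each). The genotype difference that chose Tmem132d enters these values; after subtraction of group means they were 0.83, 0.71, 0.85, 0.74 and 0.70. Log2 fold changes of the 5 ran from 0.13 (Man1b1) to 1.09 (Micall1), with 0.47 for Lmntd1. The contrast that chose Tmem132d also enters the choice of these genes, so their genotype differences are a description here. Of these 5, Micall1 and Man1b1 each share exonic sequence with a gene on the opposite strand. Among all genes, Tmem132c ranked 134th in likeness to Tmem132d, at 0.85, and Tmem132d ranked 408th in likeness to Tmem132c. For Tmem132c the most similar were Ctdsp2, Cdk19 and Furin at 0.98 each. Tmem132a was closest to Gpr153 at 0.98, Ipo5 at 0.94 and Tmpo at 0.92. Stau1, Lama3 and Daam2 led for Tmem132b at 0.95 to 0.96, and Rnf125, Zfp28 and Dnm1 for Tmem132e at 0.94 to 0.95. None of these genes near Tmem132a, Tmem132b, Tmem132c or Tmem132e in pattern was called between genotypes, with edgeR adjusted p of at least 0.447. They were picked for following members that were not called, so nothing is read from this.

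Some of the genes named in work on TMEM132 proteins were compared next, to see whether they moved with genotype. None of 28 tested genes in 2 lists was called by edgeR, against 0.619% of all genes, and 4 had an unadjusted p under 0.05; DESeq2 and limma-voom also called 0. The list of the WAVE complex and its activator Rac had 13 tested genes, 7 above 0 and 6 below, with a median log2 fold change of 0.03, where the median over all tested genes was -0.01. Its most abundant members per length were Brk1, the smallest subunit (111 FPKM in controls, 98.2 in the libraries labelled cKO), and Rac1, the GTPase that switches the complex on (69.1 and 70.5 FPKM). The scaffold subunit Nckap1 had 46.7 and 46.5 FPKM and Wasf2, which contacts the actin nucleator, had 28.7 and 32.5. Their log2 fold changes were -0.18 (SE 0.119), 0.03 (SE 0.0675), -0.01 (SE 0.0750) and 0.17 (SE 0.0852). Control 2 held 153 FPKM of Brk1, against 95.1 to 103 in the other controls. Without control 2 the log2 fold change of Brk1 was -0.04.

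The list around TMEM132A had 15 tested genes, 11 above 0 and 4 below, with a median log2 fold change of 0.10. Hspa5, a chaperone of the endoplasmic reticulum, had 198 FPKM in controls and 172 in the libraries labelled cKO, a log2 fold change of -0.20 (SE 0.169). Itgb1, an integrin chain, had 171 and 175 FPKM, a log2 fold change of 0.03 (SE 0.0692). Smo, the Hedgehog signal transducer, had 44.1 and 50.6 FPKM (0.19, SE 0.0790), and Wls, which carries Wnt proteins to the cell surface, had 28.9 and 30.2 FPKM (0.06, SE 0.0671). Among the 8 partner genes named here, edgeR adjusted p lay between 0.453 (Smo) and 0.973 (Nckap1).

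Markers of the cell types in the dissected tissue were examined beside these values. The tissue held defining markers of hair cells, with Pou4f3 at 12.6 ± 4.15 CPM and Otof at 29.5 ± 5.44 CPM in controls (SD, n = 5). Of the 15 hair cell genes, 1 was called, Pvalb, a calcium-binding protein also used by neurons, with a log2 fold change of -1.21 (edgeR adjusted p 0.0282). When each library was dropped in turn, 8 of 10 edgeR fits did not call it (largest adjusted p 0.128, without control 2), and neither did the fits on log2(FPKM + 1) and log2(FPKM + 0.1), without a filter on low counts or with the replicate block. The list's median was -0.06. The summed level of that list was 491 to 604 CPM in controls against 469 to 553 CPM in the group labelled cKO. Among all 167 tested genes of the 15 lists, 9 were called, each of them lower, 5.39% against the 0.546% of all genes called lower. Several had been seen to be lower in these data when the lists were drawn up.

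Spiral ganglion neurons, which carry the signal of hair cells to the brain, had a list of 19 tested genes with 3 called, Elavl4 (log2 fold change -0.74), Slc17a7 (-1.13) and Calb2 (-1.67), all with an edgeR adjusted p of 0.0011. Its median was -0.25, 13 members were below 0 and 6 above, and its summed level was 1802 to 1883 CPM in controls against 1244 to 1979 CPM in the other group. The Schwann cell and satellite glia list had 0 of 14 called by edgeR, 6 with an unadjusted p under 0.05 and a median of -0.36; its summed level was 1875 to 2456 and 1570 to 2068 CPM. TMEM132D was first described in mature oligodendrocytes. Of 12 tested oligodendrocyte lineage genes, 3 were called, Olig1 (-2.75), Olig2 (-2.04) and Enpp6 (-1.76), with edgeR adjusted p of 0.00025, 0.0058 and 0.0012, and the median was -0.39. Enpp6 was not called on log2(FPKM + 1). The summed level was 1219 to 1290 CPM in controls against 1085 to 1369 CPM in the other group. The largest parts came from Pdgfra, which fibroblasts also use, at 377 CPM in controls, and Cldn11, which basal cells of the stria vascularis also use, at 357 CPM. The myelin genes Mog, Mobp and Opalin, which mark mature oligodendrocytes, averaged at most 0.316 CPM in either group and were not tested. In the list of brain astrocytes and neurons 2 of 10 tested genes were called, Aqp4 (-1.61, adjusted p 0.0033) and Cbln1 (-0.89, edgeR adjusted p 0.0399). Cbln1 was no longer called in 8 of the 10 fits that each omitted a library (edgeR adjusted p up to 0.114, without cKO 4), nor on log2(FPKM + 1) or with the replicate block. In either direction, an unadjusted edgeR p under 0.05 was found for 10 of 19 spiral ganglion genes and 9 of 12 oligodendrocyte lineage genes. For hair cells it was 2 of 15, for brain astrocytes and neurons 3 of 10, and for all tested genes 9.65%. The part of any cell type in the level of Tmem132d was not tested.

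**Figure D4:**
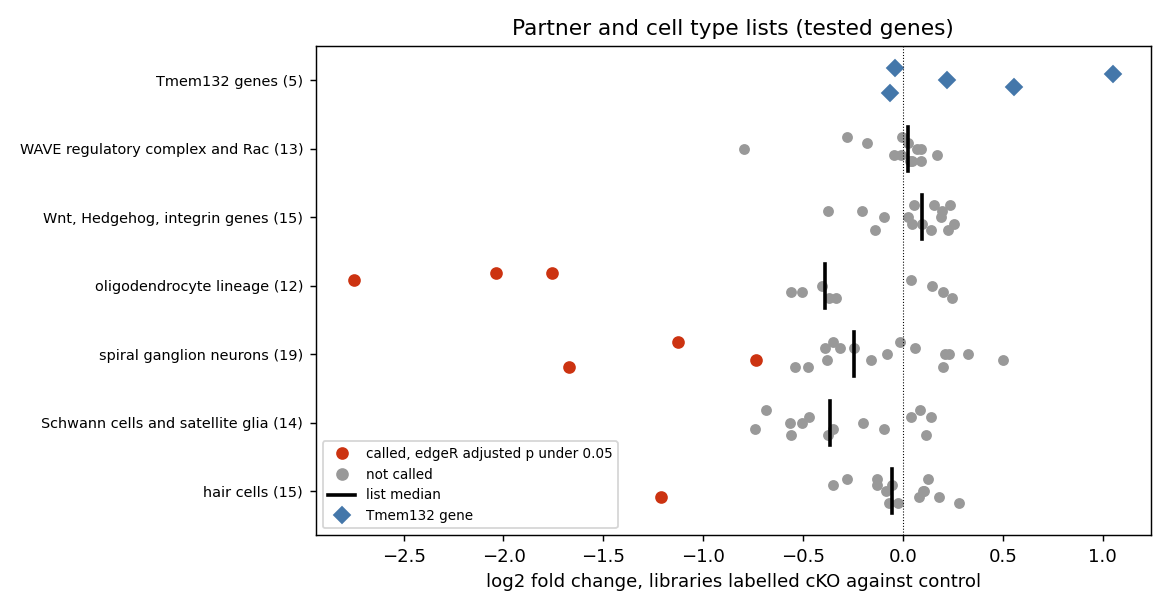
Log2 fold change between the libraries labelled cKO and the controls (horizontal axis) for the Tmem132 genes (blue), the 2 partner lists and 4 of the cell type lists; each point is a tested gene, red points were called by edgeR and black bars are list medians. The partner lists hold no red point, and the red points of the cell type lists all lie below 0.

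The remaining 8 cell type lists held 0 calls by edgeR. Their medians were -0.07 for supporting cells, 0.14 for melanocytes, 0.23 for marginal cells, 0.06 for periotic mesenchyme and -0.21 for cartilage and bone. They were -0.76 for blood, 0.16 for macrophages and -0.26 for skeletal muscle. An unadjusted edgeR p under 0.05 was found for 3 of 14 supporting cell, 2 of 11 melanocyte and 2 of 9 marginal cell genes. It was found for 0 of 11 periotic mesenchyme, 0 of 8 cartilage and bone and 1 of 7 blood genes. For macrophages it was 1 of 9, for skeletal muscle 1 of 4 and for all tested genes 9.65%. The log2 fold changes of the 9 marginal cell genes were all above 0, and those of the 7 blood genes all below 0. Summed blood transcripts ran from 714 to 2968 CPM in controls, and from 444 to 1296 CPM in the other group.

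Whether genes beside the Tmem132 loci differed was asked within 500 kb of each. There 50 further genes were tested. An unadjusted edgeR p under 0.05 was found for 9 of them, where 9.65% of all tested genes had one. Of the 50, 1 was called, against 0.619% of all genes. This was Syt7, a calcium sensor of membrane fusion, 405 kb from Tmem132a, with 57.6 ± 10.2 CPM in controls against 26.7 ± 1.61 CPM in the group labelled cKO (SD, n = 5 each; log2 fold change -1.11, SE 0.119, edgeR adjusted p 0.00047). Near Tmem132d, 0 of 8 tested genes were called by edgeR and 2 had an unadjusted p under 0.05. Its nearest tested neighbours, 1 on each side, were Glt1d1, 72.3 kb away between Tmem132c and Tmem132d, and the noncoding Gm42495, 11.3 kb beyond the 5′ end of Tmem132d. For Glt1d1 the log2 fold change was -0.36 (SE 0.195), and for Gm42495 it was 0.99 (SE 0.372); neither was called. Gm42500, 15.8 kb away on the same side as Gm42495 and named after its values were seen, was at 0.67 (SE 0.347) and was not called. Gm42495 was very low, at 0.213 ± 0.0495 and 0.427 ± 0.213 CPM. For Slc15a4, which also lies between Tmem132c and Tmem132d, it was 0.13 (SE 0.123). Rimbp2, an organizer of the presynaptic active zone 325 kb from Tmem132d, was picked out after its values were seen. It averaged 12.0 ± 2.23 CPM in controls against 7.15 ± 1.34 CPM in the other group (SD, n = 5 each). Its log2 fold change of -0.74 (SE 0.164; edgeR adjusted p 0.0681) was opposite in sign to that of Tmem132d. The gene was called with DESeq2 (adjusted p 0.0019), limma-voom (0.00084), no filter on low counts (0.0156) and the replicate block (0.0141). With 1 library left out, edgeR called it in the fit without control 2 (adjusted p 0.0044) and in none of the others. Beside Tmem132b the nearest tested gene was Aacs, at a log2 fold change of -0.08 (SE 0.0872). Beside Tmem132e the noncoding Gm38577 was at 0.07 (SE 0.447) and Cct6b at 0.27 (SE 0.333).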

How the data were processed

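Messenger RNA of cochlear soft tissue was measured in 10 libraries, 5 per genotype, each from 1 animal. Whole-number counts per Ensembl gene and FPKM values were deposited by the authors. The submitters' processing notes name the build mm10 and the tools STAR 2.5, HTSeq 0.61 and DESeq2 without roles; strand use and the annotation are not given in the sources used here. Columns were matched to libraries by the library name in the labels. Deposited FPKM values equalled counts divided by 1 length per gene and 1 factor per library; the implied lengths were within 0.1% of merged exon lengths in GENCODE M21 (GRCm38) for 95.3% of 13928 genes whose lowest count was 50 or more, so symbols and positions came from it (54495 of 54532 IDs matched). The length implied for Tmem132a was 4069 bases where that annotation has 4548.

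Counts were tested in edgeR 4.0.16 (filterByExpr with a minimum of 10 counts, TMM scaling, robust quasi-likelihood F-test, genotype as the only term), with Benjamini-Hochberg adjustment over 17937 genes and calls at an adjusted p under 0.05; the script was tested on simulated data. Log2 fold changes are libraries labelled cKO against control; SE were derived from the F statistic, and intervals are 1.96 SE. Log2 CPM used a prior count of 2. Named genes were the members, Esrrg, called genes of the fixed lists, the 4 most abundant genes of each partner list, called or nearest genes within 500 kb, and the 5 (Tmem132d) or 3 most correlated genes. Another partner list is not reported here. The members and lists were chosen with earlier results of these data known. Alternatives were other scalings and filters, no robust estimation, DESeq2 1.42.0, limma-voom (limma 3.58.1), limma on log2(FPKM + 1) and log2(FPKM + 0.1), the replicate number as a block, other thresholds and distances, and leaving out each library. Leaving out libraries for the correlation of Tmem132c with Tmem132d was added after the data were seen. Labels give 1 animal per library, so p-values measure the spread between animals.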

Additional observations from a re-analysis of the deposited data

Results flagged for a closer look

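Each of 15 genes (the 5 members, Esrrg, the 8 named partner genes and Syt7) was checked by Dixon's test, in the controls and in the group labelled cKO, for 1 library that stands off. Chance gives about 5% of groups, or 1.5 of 30, and 1 was found, which was not in a Tmem132 gene. Brk1 had 170 CPM in control 2, where the other controls had 104 to 113.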

How the results depend on the processing

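For Tmem132a, Tmem132b and Tmem132c, direction and lack of a call were the same in all 20 alternatives, with edgeR, DESeq2 or limma adjusted p of at least 0.260; Tmem132e changed sign without cKO replicate 4, in a range of -0.11 to 0.024 with 1 library left out. Tmem132d moved by more than the spread between replicates only on log2(FPKM + 1), to 0.58. Esrrg kept its direction, but its call was lost with log2(FPKM + 1) (0.57), with log2(FPKM + 0.1) (0.61), with the replicate block (0.61, adjusted p 0.0562) and in 7 of 10 fits with 1 library left out, where log2 fold changes ran from 0.54 to 0.70. Same-numbered libraries of the groups had correlated deviations of 0.021 to 0.18, where other pairs had -0.29 to 0.17. Of 10 libraries, 6 correlated best with their own number. The main fit did not take the numbers as pairs, and whether same-numbered libraries share a batch was not tested. With the replicate block there were 101 calls, 81 of them among the 111.

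Genes called lower were 253 with DESeq2, 362 with limma-voom, 41 at an adjusted p under 0.01 and 44 to 178 with 1 library left out (178 without control 2, 44 without control 3). Genes called higher were 54, 74 and 7 in the same order, 24 at an adjusted p under 0.1, and 8 to 19 with 1 library left out. Calls in the fixed lists were 16 with DESeq2 and 18 with limma-voom. Calls near the Tmem132 loci were 4 with DESeq2, 3 with limma-voom, 2 without a filter, 2 with the replicate block, 1 to 2 with 1 library left out and 0 within 250 kb. With 1 library left out, 2 uncalled partner genes changed sign: Rac1 (-0.00096 to 0.039) and Nckap1 (-0.064 to 0.022). Levels per length of the 5 members moved by less than 1 SD when CPM per kilobase replaced FPKM. Both measures use the same length per gene, so the differing length of Tmem132a was not covered. Counts of 44 to 156 per library limit Tmem132b most.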
